A study of Homo sapiens with 8 samples.

Results

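The locus of TP63, the gene of the transcription factor p63, was examined in a chromatin accessibility study of surface ectoderm, and 19 of the 14191 sites that the authors listed lay there. TP63 lies on the long arm of chromosome 3, and its locus was taken as the hg19 interval chr3:189000001-190000000. A site was a member if its centre fell inside that interval. The interval was selected on its number of listed sites, so that number is a description and carries no test. The members were 16 of the 6037 sites in a list named for opening by morphogens and closing by p63, here p63-closed sites, and 3 of the 8154 sites in a list named for opening by morphogens, here opened sites.

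The assay was ATAC-seq, which cuts and tags open DNA with the Tn5 transposase, in the human embryonic stem cell line H9. There were 4 groups of 2 samples. Cells with the genotype p63-/- and wild-type cells were each taken at day 7 of differentiation with 1 uM retinoic acid (RA) and 5 ng/ml BMP4. Cells with the genotype TetO:Tp63+/- were taken at day 0 after 2 days of 2 ug/ml doxycycline, which induces p63, and wild-type cells were taken untreated at day 0. The labels attach the p63-closed list to the p63-/- and wild-type samples at day 7, and the opened list to wild-type cells of both days, 7 and 0. No list is attached to the induced line. The labels do not say which part of TP63 is altered in the p63-/- cells or whether they are 1 clone, so whether a member site overlaps the altered stretch was not determined. Both lists give positions only. Read depth is unknown, there is no value for any sample, and no spread between cultures can be given. The directions "opened" and "closed" are those of the authors' list names.

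p63 is a member of the p53 family and is needed to form and maintain stratified epithelia such as epidermis. TP63 is usually described with a pair of promoters. The first, towards the 5′ end of the gene, gives TAp63 proteins with an N-terminal transactivation domain. The second lies inside the gene, in an intron, and gives ΔNp63 proteins without that domain, the main form in basal keratinocytes and in the embryonic surface epithelium. RA and BMP4 are signals that turn pluripotent cells towards surface ectoderm, in which ΔNp63 comes on. In the RefSeq gene table, the protein-coding genes next to TP63 are TPRG1 on its upstream side and P3H2, a collagen prolyl 3-hydroxylase gene, on its downstream side. CLDN16 and CLDN1, which encode claudins of tight junctions, follow P3H2. The microRNA gene MIR944 lies inside TP63. The table is of another build (GRCh38.p14), so it was used for this order alone, and member sites were placed against no gene but TP63. Whether members upstream or downstream of TP63 lie inside a neighbouring gene was not determined.

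The sequence before the first promoter's start site is shown because no listed site lay near that end of the gene. RefSeq (GRCh38.p14) gives the 250 bases before the start at chr3:189631139-189631388 on the plus strand. These are GRCh38 positions, and must not be compared with the hg19 positions of the sites. No base is in capitals, as none of the motifs searched was found.

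TP63 promoter: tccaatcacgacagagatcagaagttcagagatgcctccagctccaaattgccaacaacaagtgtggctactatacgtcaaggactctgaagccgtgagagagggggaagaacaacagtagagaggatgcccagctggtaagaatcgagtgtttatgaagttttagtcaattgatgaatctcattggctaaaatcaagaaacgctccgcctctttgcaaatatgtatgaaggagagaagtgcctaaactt

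Of these bases 44.0% were G or C, against a median of 58.0% over the 35116 promoters of the same length in the table. On both strands 8 motifs were searched and 0 had a match. The retinoid receptor core motif AGGTCA was held by 12.1% of all promoters, the SMAD motif CAGAC by 38.0%, and the TFAP2 motif GCCNNNGGC by 19.8%. The GATA motif AGATAA was held by 9.17%, the TEAD motif CATTCC by 11.9%, the AP-1 motif TGANTCA by 6.57%, and the grainyhead motif AACCGG by 5.99%. The spaced core bases of a p53 family element, a loose pattern, were held by 68.6%. A missing match says only that these letters are not in this window. No sequence was read for the member sites, since no hg19 genome was used here, so their motifs were not analysed.

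The gene body was taken to run from about 189.35 to 189.62 Mb, ends rounded to 10 kb, a length of 270 kb. TP63 is transcribed towards higher coordinates. By these ends 9 members lay upstream of the gene (8 p63-closed and 1 opened), 6 inside it (5 p63-closed and 1 opened), and 4 downstream (3 p63-closed and 1 opened). Each of these stretches thus held exactly 1 opened site. The p63-closed sites numbered 2.29 per 100 kb upstream, 1.85 per 100 kb in the gene body and 0.789 per 100 kb downstream. These densities rest on 8, 5 and 3 sites and were not tested against each other.

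**Figure D1:**
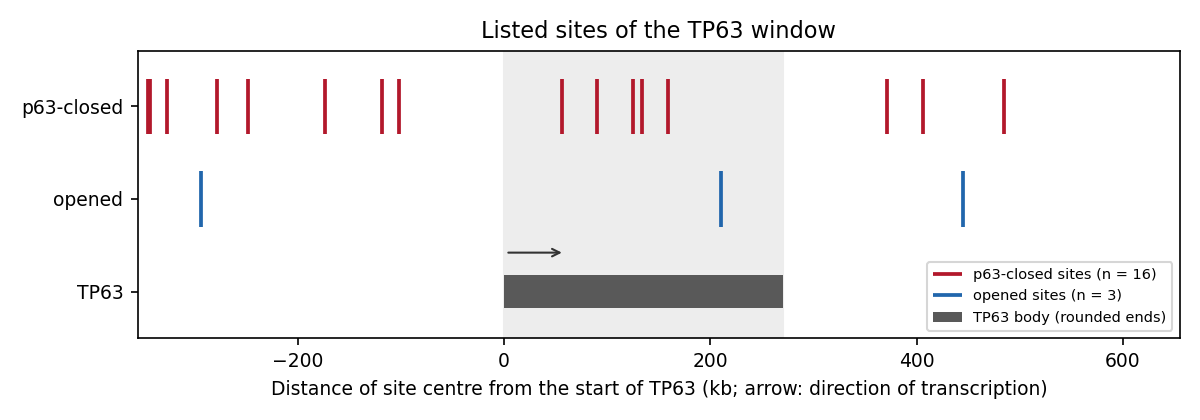
Positions of the 19 listed sites of the TP63 window. The horizontal axis gives the distance of each site's centre from the start of TP63 in kb, with p63-closed sites in the upper row, opened sites in the middle row, and the gene body as a bar; the sites fall in 3 blocks, and each end of the gene lies in a stretch of 157 or 159 kb without a listed site.

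Inside the gene, the p63-closed sites all lay in the stretch from 20.8% to 58.9% of the way along it, that is, 56.0 to 159 kb past its start. Along the gene, the first of them ran from 189405118 to 189406972, and was 1855 bp wide, with 68.7% of its list narrower. The second, from 189438316 to 189440830, was 2515 bp wide, and 90.1% of p63-closed sites were narrower. The third and the fourth lay close together, with 7.87 kb between them.

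The third ran from 189473574 to 189475391 and was 1818 bp wide. The fourth ran from 189483264 to 189484915 and was 1652 bp wide. Both widths were above the p63-closed median.

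The fifth, from 189507029 to 189511124, was 4096 bp wide. It ranked 18 by width among 6037 p63-closed sites and 3 among the 505 of chromosome 3, and was 2.68 times the list's median width. The widest site of the list measured 5624 bp. The hg19 gene models, known as background and not read from any table used here, place the start of ΔNp63 transcripts inside this site, towards its low-coordinate end. It is therefore the only member that could be set beside either promoter, and that placement was not checked against an annotation. No other p63-closed site was listed between it and the end of the gene.

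The opened site of the gene body followed 47.8 kb further on, from 189558944 to 189561739. It lay 77.9% of the way along the gene, which is past the second promoter and before the 3′ end, and was 2796 bp wide. Of all opened sites 92.9% were narrower. Whether any of these 6 sites covers an exon was not determined.

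The start of the gene, and with it the first promoter, had no listed site near it. The nearest upstream site ended 102 kb before the start, and the nearest downstream site began 55.1 kb after it. The stretch without a listed site ran from 189248188 to 189405117, or 157 kb. The RefSeq table holds TP63 transcripts that begin 34.6 kb further upstream than the promoter shown, and a start moved by that distance still fell in this stretch.

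The end of the gene lay in a second such stretch, of 159 kb, from 189561740 to 189720788. Neither stretch is long for these lists: 62.4% and 62.8% of the gaps between neighbouring listed sites of the genome were shorter. Within the 3 blocks the gaps were 0.956 to 73.4 kb, and the median of all gaps in the window was 32.2 kb, against 94.7 kb over the whole genome. A site absent from the lists is not shown to be closed or unchanged, since the lists give only the sites that the authors picked.

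Upstream of TP63, the first 3 p63-closed sites lay at the far end of the window. The first ran from 189003582 to 189005226 and the second from 189006183 to 189007244, with 956 bp between them. They are consecutive in the authors' numbering of sites, the only such pair of the locus. The third ran from 189022044 to 189023681.

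The upstream opened site followed, from 189055324 to 189056222. It was the narrowest of the 3 opened members at 899 bp, and 7.11% of opened sites were narrower. Another 5 p63-closed sites lay between it and the gene.

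Of these, the one nearest the opened site ran from 189071243 to 189072700. The next ran from 189100308 to 189102287 and, at 1980 bp, was the widest upstream. One that stood apart, from 189175662 to 189177094, had 73.4 kb on one side and 53.2 kb on the other without a listed site.

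The last pair before the gene ran from 189230292 to 189232085 and from 189247076 to 189248187, centred 119 and 102 kb before the gene's start. Upstream p63-closed sites were 1062 to 1980 bp wide, with a median of 1548 bp.

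Downstream of TP63 the members were sparser. The p63-closed sites ran from 189720789 to 189722093, from 189755737 to 189756853 and from 189834238 to 189835052, centred 101, 136 and 215 kb past the gene's end. The last of them, 815 bp wide, was the narrowest member of the locus, and 5.40% of its list was narrower. The downstream opened site, from 189794200 to 189795910, was 1711 bp wide and lay between the second and the third of these.

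Width, which played no part in choosing the members, differed along the locus. All 5 p63-closed sites of the gene body were wider than the list's median of 1531 bp, with a median of 1855 bp. Of the 8 upstream sites 4 lay above it and 4 below, and all 3 downstream sites were narrower, at 815 to 1305 bp. Over the 16 p63-closed members the median was 1642 bp, 9 were above the list's median, and 2 were above its upper quartile of 2005 bp, both in the gene body. The opened members measured 899, 2796 and 1711 bp in order along the chromosome, against a list median of 1597 bp. The ordering by place was seen in the data and was not tested. In all, p63-closed sites covered 11.9 kb of the gene body, which is 4.42% of it.

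**Figure D2:**
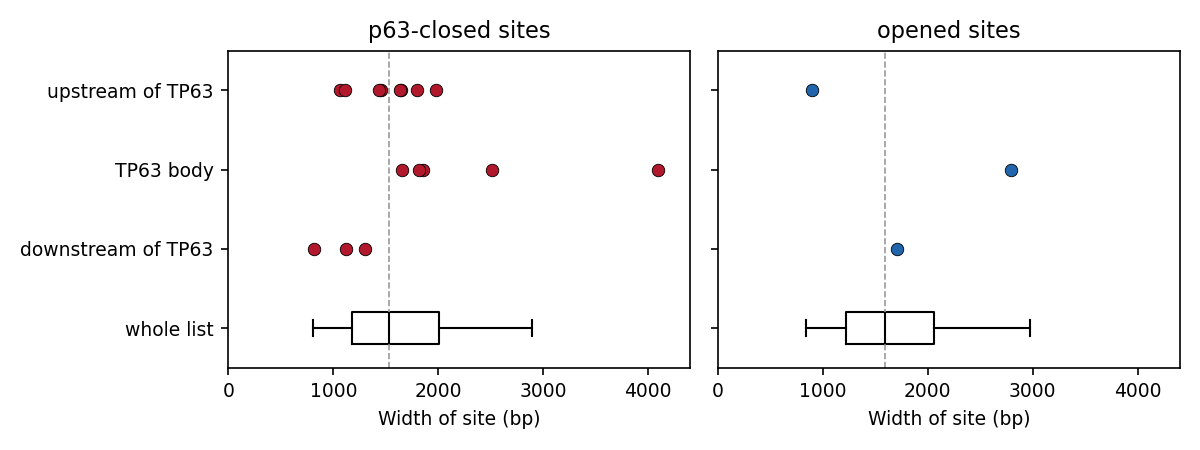
Width in bp of each member by its place against TP63, for p63-closed sites (left) and opened sites (right). Each point is 1 site; the box below gives the median and quartiles of the whole list with whiskers at its 5th and 95th percentiles, and the dashed line its median. The 5 p63-closed sites of the gene body lie right of the line, and the 3 downstream ones left of it.

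The mix of the lists at the locus was one-sided. Of its 19 listed sites, 84.2% were p63-closed (exact Clopper-Pearson 95% interval 60.4 to 96.6%, counting error only), against 42.5% of all listed sites and 48.0% of those on chromosome 3. The interval also takes neighbouring sites as independent, which was not checked. The locus was chosen with this excess known, so the interval supports nothing further. The share was 88.9% upstream, 83.3% in the gene body and 75.0% downstream, shares of 9, 6 and 4 sites that cannot be ordered. In sequence along the chromosome, 3 p63-closed sites were followed by an opened one, then 10 p63-closed, an opened, 2 p63-closed, an opened and a last p63-closed site. The unbroken run of 10 reached over 440 kb, from 189071243 to 189511124, and thus crossed the first promoter and ended at the widest site. Among 2729 runs of p63-closed sites in the genome, 35 were as long or longer, up to 21 sites, so a run of this length was not peculiar to TP63.

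Members of the p63-closed list lay close to each other. The distance from centre to centre to the nearest p63-closed site had a median of 27.2 kb (2.31 to 78.4 kb) at the locus, against 74.6 kb over the list, and 14 of the 16 had one within 50 kb, against 41.8% of the list. To the nearest opened site the median was 62.5 kb (16.2 to 192 kb) at the locus and 120 kb over the list. From each of the 3 opened members the nearest opened site, in the window or outside it, lay 229 to 235 kb away, against a median of 74.7 kb over the opened list. Each had a p63-closed site nearer, at 16.2 to 51.3 kb. These distances follow in part from the number of sites for which the locus was chosen, and were not tested.

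The count of p63-closed sites fell away quickly on both sides of the locus. The window of TP63 held 16, against 0 to 9 in each of the other 10 windows of 1 Mb within 5 Mb of it. Next to it, the window below held 4 p63-closed sites and 1 opened, and the window above held 1 p63-closed and 2 opened. Sites of the opened list did not peak there, at 3 in the TP63 window and 0 to 10 in the others. The first member's centre lay 4.40 kb inside the lower edge of the window, and the last lay 165 kb inside the upper edge. The nearest listed sites outside were opened ones, from 188825722 to 188827698 and from 190174383 to 190176240, centred 173 kb below and 175 kb above the edges. The nearest p63-closed sites outside lay from 188581125 to 188583264 and from 190690425 to 190691234, so no p63-closed site near either edge was left out by the choice of window.

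**Figure D3:**
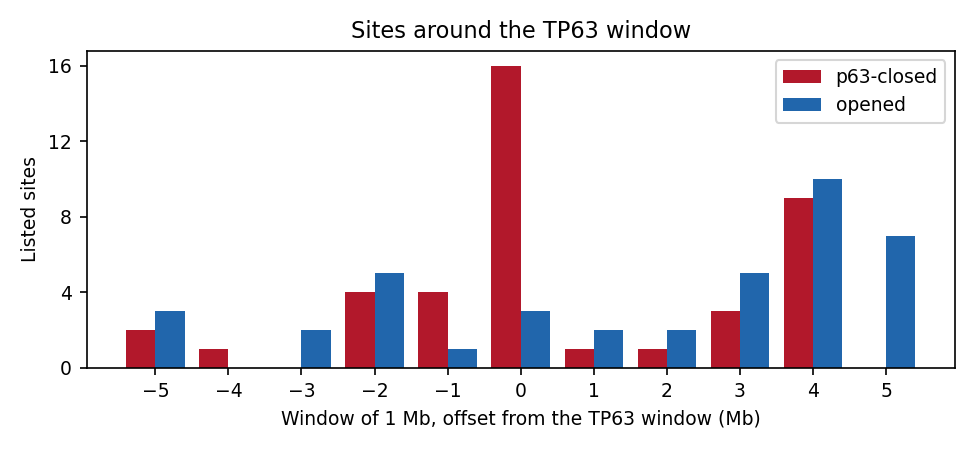
Number of p63-closed (red) and opened (blue) sites in the window of TP63 (offset 0) and in the windows of 1 Mb up to 5 Mb away on either side of it. The TP63 window holds 16 p63-closed and 3 opened sites, and no other window shown holds more than 9 p63-closed sites.

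Against the whole genome, the window held the most p63-closed sites of 2948 windows. These sites belong to the count of listed sites for which the window was chosen, so its rank is a description and no test. Windows of 500 kb left the locus first, with 12 sites in the one that begins at the same lower edge. It ranked 4 with windows of 2 Mb, which held 20, and 6 with windows of 1 Mb shifted by 500 kb, which held 13. By the opened list alone it was ordinary: 1340 of the windows held as many or more, and its 3 sites compare with a mean of 2.77. The p63-closed list is also named for opening by morphogens. With both lists together the window held 19 sites, against a mean of 4.81, and ranked 5, and 9 windows held as many or more. That total is the number on which the interval was selected. The gene body alone held 5 p63-closed sites, a number reached by 0.966% of the 10866 tiles of 270 kb, where the mean was 0.556, and its 1 opened site was matched or passed by 45.1% of tiles. These 5 sites belong to the count for which the locus was chosen, and the tiles were laid from the gene's start. The share of tiles is therefore a description and no test.

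The windows most like it, with 14 p63-closed sites each, were on chromosome 20 from 15000001 to 16000000 and on chromosome 15 from 96000001 to 97000000. The p63-closed sites spanned 831 kb at TP63, 908 kb on chromosome 20 and 580 kb on chromosome 15. The median gap between them was 32.7 kb at TP63, 40.0 kb on chromosome 20 and 34.5 kb on chromosome 15. The widest p63-closed site measured 4096 bp at TP63, 2399 bp on chromosome 20 and 2355 bp on chromosome 15. Spacing at TP63 was close to that in the other windows. This follows in part from picking windows with at least 14 p63-closed sites, and was not tested. The widest site at TP63 was wider than any of theirs, a difference given as a description.

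The authors' site numbers rise along chromosome 3 and appear to come from a larger numbered catalogue. What its entries are is not given in the sources used. From the first to the last member the catalogue held 567 entries, 1 per 1468 bp, against 1 per 1490 bp along chromosome 3. Of these entries 3.35% were listed, against 0.794% of the entries of chromosome 3. With entries spaced so alike, this contrast restates the number of sites for which the locus was chosen. The stretch counted was also cut at the outermost members, which raises the share, and the contrast was not tested. The stretch without listed sites around the gene's start held 106 such entries, and that around its end 125. Whether those entries were assessed as accessible regions is unknown.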

How the data were processed

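ATAC-seq was carried out on 8 samples in 4 groups. Per the submitters' processing notes, the builds were hg19 and GRCh37 (the same assembly), and the tools included MACS2, Bowtie2, DESeq2, SAMtools and FastQC. Their versions, roles and thresholds, and whether replicates were pooled, are not given in the sources used. The authors deposited 2 lists of 4 columns (chromosome, start, end and site name), with positions in bp as the only values used and no value per sample. Depth is unknown.

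Positions were converted to count from 1 on hg19. Sites were assigned by their centre. Windows run from the first to the last that holds a listed site of each chromosome. Gene ends are those of the rule that defined the locus, since the gene tables are of GRCh38. All members are named, and the genes next to TP63 are given by order. No test between samples was possible and none was made over sites. Protein sequences and the loci of other genes were not analysed here. The members, lists and settings were chosen with earlier results of these data known. Counting was tested on simulated sites. Python 3.11.15, numpy 2.4.6, pandas 2.3.3, scipy 1.17.1 and matplotlib 3.10.9 were used.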

Additional observations from a re-analysis of the deposited data

How the results depend on the processing

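No paired analysis was possible because the files carry positions alone, so leaving out a replicate could not be tried either. Of 16 alternative settings over 7 results, 14 stayed within 1.5 times the count or inside the interval of the share. The exceptions were the rank of the TP63 window by p63-closed sites, which was 4 with windows of 2 Mb and 6 with windows of 1 Mb shifted by 500 kb; the shift divides the members between 2 windows. Joining sites of one list within 10 kb gave 14 p63-closed and 3 opened sites, a p63-closed share of 82.4%. In the gene body alone the share was 83.3%. Both settings reuse the member sites and the interval is wide, so staying inside it says little. Counts in the gene body were the same with its ends moved by 10 kb either way. They were also the same with its start moved upstream by 34.6 kb, a setting added after the data were seen. The nearest listed sites lay 55.1 kb from the gene's start and 58.3 kb from its end, so these moves could change no count. Counting any overlap of 1 bp with the window could change none either, as the nearest listed site outside was centred 173 kb away. Nor could joining opened sites, each 229 kb or more from any other opened site. Such settings are among the 14 and say nothing about stability. Gene ends from an hg19 annotation were not run, as no such annotation was used here. Depth is unknown, so what depth limits cannot be given.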
